A study of Mus musculus with 6 samples.

Results

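Intergenic features close to a gene start were followed in the left atria of mice that overexpressed FOG2. A feature counted as a member when it overlapped no GENCODE M21 gene body on either strand and lay at most 10 kb from the start of the nearest protein-coding gene. Of the 34518 features in the authors' deposited table, 4729 met this rule (13.7%), which was 26.7% of the 17687 intergenic features. They lay nearest to 2665 genes, with at most 11 members at a gene, and position alone chose them. Features were unnamed stretches of RNA output on the mm10 build, from 101 to 63376 bases long with a median of 223, and most carried only an assembler's number (MSTRG). Each is named below by its number and by the gene with the nearest start, which does not make it a transcript of that gene.

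The study compared 2 groups of 3 libraries of left atrium RNA from adult mice of the outbred CD1 stock. FOG2_OE libraries came from animals that overexpressed FOG2 and WT libraries from wild-type animals, and neither had received doxycycline for 1 week. The labels call the animals DTG and NTG without spelling these out. The promoter driving FOG2, and whether animals were pooled, are not given in the sources used here. Ribosomal and polyadenylated RNA had been removed before sequencing. Effective library sizes, computed here from the deposited fit and not counted from reads, were 72464183 to 84907173 in FOG2_OE and 71180401 to 82251201 in WT. Of 3 features over the body of Zfpm2, the gene of FOG2, 1 was called higher and 0 lower. The one called higher (MSTRG.29831) had fitted counts of 33173, 30172 and 35352 in the FOG2_OE libraries and 34.5, 37.9 and 39.8 in the WT libraries. Log2 fold changes of the 3 ran from -1.07 to 9.74 by the authors' deposited table. Features of 6 of 7 atrial muscle markers were listed, with a summed level of 14.97 CPM (read counts scaled to a common library size) in FOG2_OE against 40.3 CPM in WT. Of 5 ventricular markers only Myh7 had features, at 0.207 and 0.250 CPM.

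FOG2 binds GATA transcription factors and, with them, turns cardiac genes up or down. RNA polymerase often starts in both directions at a promoter, and it can run on past the end of a gene or start at enhancers. Such RNAs are mostly short-lived and lack a poly(A) tail, so a library depleted of polyadenylated RNA can hold many of them. In the atrium the nearby genes include those of the atrial myosin light chain, the natriuretic peptides and the channels that set the heartbeat.

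At 3 of the genes named below the member covered most of the 250 bases before the RefSeq gene start, and these windows are shown because the counted reads fell on them (RefSeq starts on GRCm38.p6, printed on the strand of the gene, 5′ to 3′). Capitals mark the bases that lie inside the member.
Hcn4: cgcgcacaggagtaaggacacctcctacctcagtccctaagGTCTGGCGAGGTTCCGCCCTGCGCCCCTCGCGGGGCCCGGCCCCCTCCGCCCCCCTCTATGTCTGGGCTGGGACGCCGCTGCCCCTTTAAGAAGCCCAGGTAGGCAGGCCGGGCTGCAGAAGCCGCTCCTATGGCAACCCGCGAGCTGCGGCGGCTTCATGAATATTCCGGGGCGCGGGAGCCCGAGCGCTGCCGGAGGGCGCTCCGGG
Cdcp1: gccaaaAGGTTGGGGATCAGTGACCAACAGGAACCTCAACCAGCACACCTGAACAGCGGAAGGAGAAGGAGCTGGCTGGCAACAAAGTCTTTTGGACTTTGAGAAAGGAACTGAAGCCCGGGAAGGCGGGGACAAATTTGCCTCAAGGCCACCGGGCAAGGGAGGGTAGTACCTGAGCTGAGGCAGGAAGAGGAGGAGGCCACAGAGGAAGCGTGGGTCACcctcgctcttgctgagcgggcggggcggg
Adcy5: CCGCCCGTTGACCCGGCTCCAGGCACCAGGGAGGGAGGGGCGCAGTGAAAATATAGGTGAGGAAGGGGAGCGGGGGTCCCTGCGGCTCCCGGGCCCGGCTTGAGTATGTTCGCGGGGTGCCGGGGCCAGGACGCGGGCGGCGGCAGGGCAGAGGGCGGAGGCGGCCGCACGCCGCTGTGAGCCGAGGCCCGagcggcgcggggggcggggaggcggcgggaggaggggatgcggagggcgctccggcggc
The Hcn4 window was chr9:58822699-58822948 on the + strand, and MSTRG.85266 covered 209 of its bases and ran on past the RefSeq start. That start lies 463 bases upstream of the GENCODE start, so the member that is intergenic in GENCODE overlapped the Hcn4 gene as RefSeq draws it. The Cdcp1 window was chr9:123216039-123216288 on the - strand, with 215 bases inside MSTRG.88310. The Adcy5 window was chr16:35154614-35154863 on the + strand, with 191 bases inside MSTRG.33911. At Cdcp1 and Adcy5 RefSeq's whole gene range reaches further upstream than the start used for the window. These ranges hold 43 of the 215 bases of MSTRG.88310 and all 244 of MSTRG.33911. The T-box letters AGGTGT, searched on both strands, were found once in the Hcn4 window, 233 bases before the start and outside the member. In the Cdcp1 window they were found once, at 206 bases before the start and inside the member. Among all 32851 starts of the RefSeq promoter table, 11.8% held them in a window of that length. None of the 3 windows held the GATA letters AGATAA (with T also allowed first and G also allowed last, both strands), which 26.5% of all starts held. A match is a run of letters and was not tested as a binding site.

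Most members did not pass the test, and those that did were mostly lower with FOG2 overexpression. At an adjusted p under 0.05 in the authors' deposited table (likelihood ratio test, Benjamini-Hochberg over all features), 31 members were higher and 136 lower in FOG2_OE. The share called was 3.53% of members, beside 5.81% of all features. Higher calls made 0.656% of members (1.16% of all features) and lower calls 2.88% (4.65% of all features). The called members lay nearest to 25 genes with higher and 102 genes with lower members, of 2665 genes in all. No gene had both, which was not read as a result with so few genes called. The median log2 fold change of the members by the authors' deposited table was -0.26, beside -0.21 for all features. When the ratios of all features were centred at a median of 1, the split was 46 higher and 98 lower members, or 68.1% lower in place of 81.4%. These were 0.973% and 2.07% of members, where 1.62% and 3.49% of all features were called higher and lower.

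The authors' likelihood ratio test takes no account of error in the dispersions. With the same likelihood ratios read against an F reference of 10 residual degrees of freedom, 6 higher and 27 lower members passed, beside 1.27% of all features. With 4 residual degrees of freedom 0 members passed. At an unadjusted p under 0.05 that reference gave 46 higher and 163 lower members, or 4.42% of members, beside 7.12% of all features. For the members this is below 5%, the share that a reference fitting the data gives when nothing differs. Whether this reference fits these ratios was not checked, so the share does not settle whether members differ. The sample columns of the table held values of the authors' fit, which within a group differ only by library size. One fitted CPM per group therefore stands for all 3 of its libraries, and the spread between replicates is not known. Where 2 levels are set against each other below, the FOG2_OE level comes first. An implied standard error (SE) was solved from each likelihood ratio instead.

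**Figure D1:**
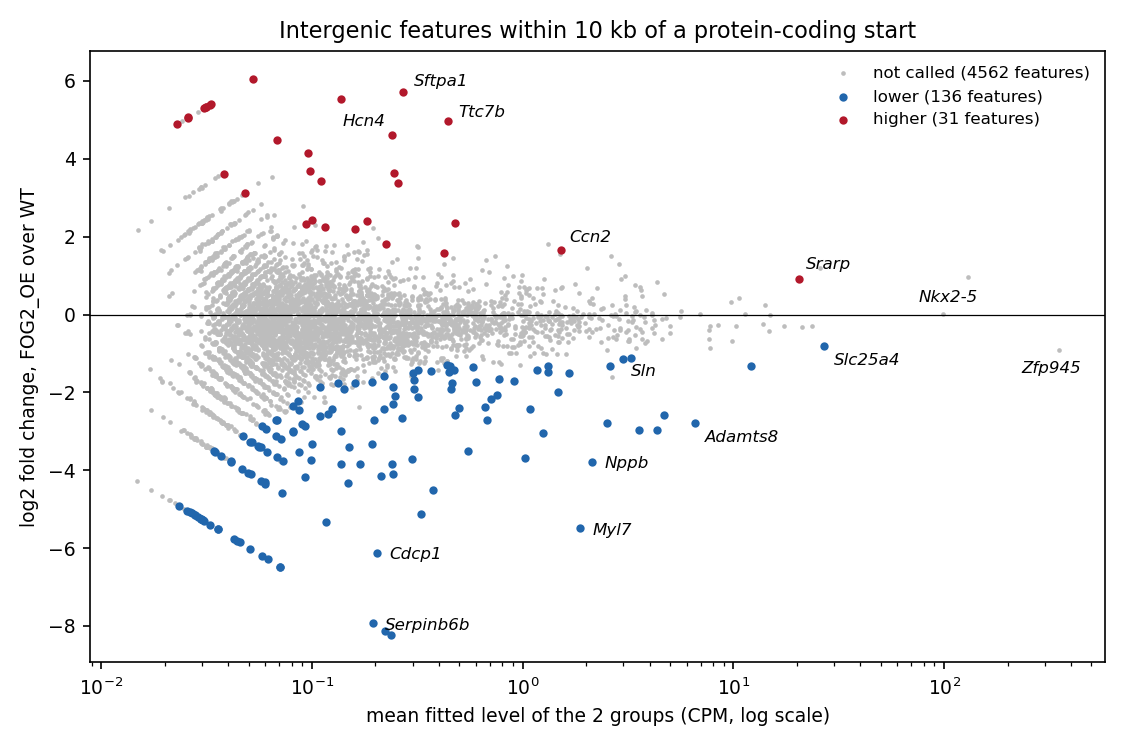
Log2 fold change of FOG2_OE over WT by the authors' deposited table against the mean fitted level of both groups (CPM, log scale) for the 4729 members, with the nearest gene of some named members. The 136 lower members (blue) outnumber the 31 higher ones (red), and the abundant Nkx2-5 member lies at 0.00.

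Members were scarce, with a median of 6.66 fitted counts per library. Of them 64.0% lay under 10, while 203 had at least 100. All members together summed to 1873 CPM in FOG2_OE against 2225 CPM in WT. Single abundant members that did not pass weigh on these sums. MSTRG.36238 had 242 CPM in FOG2_OE against 457 CPM in WT, and MSTRG.79054 went the other way, with 172 against 88.4 CPM. In FOG2_OE 34 members stood at 0, of which 26 were called, and in WT 12 stood at 0, of which 9 were called. The share called was largest among the most abundant features, members or not. It was 2.94% of members against 4.36% of all features at a fitted count of up to 5, 3.82% against 6.37% from 10 to 20, and 8.87% against 12.01% over 100. In each of 6 bins of level the members' share was the lower, without a test of the difference, since neighbouring features are not independent. Intergenic features farther out had larger shares, 5.81% at 10 to 100 kb and 12.96% beyond 100 kb, and features over gene bodies had 5.01%. Close to the limit of the rule, 2 of 396 members at 9 to 10 kb were higher and 13 lower, and 2 of 368 features just outside it, at 10 to 11 kb, were higher and 13 lower.

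**Figure D2:**
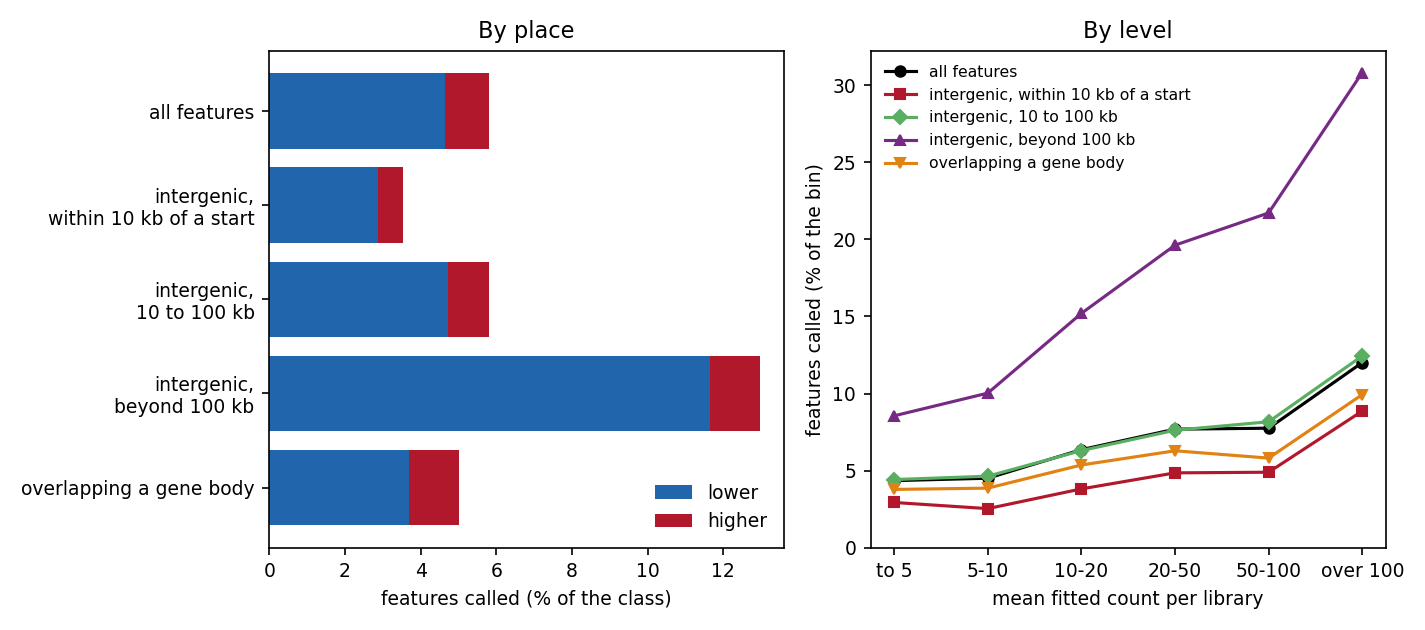
Left, percent of features called lower (blue) and higher (red) by the authors' deposited table by place; right, percent called by mean fitted count per library, 1 line per class. The members (red squares) lie below the other classes in each bin of level, and features beyond 100 kb lie above them.

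Members before a gene start were the larger group. Of 3689 members before the start, 23 were higher and 115 lower, and of 1040 past the end of the gene, 8 were higher and 21 lower. Members before the start and listed on the opposite strand, the place of divergent promoter RNA, numbered 2051 with 16 higher and 73 lower. Those listed on the gene's own strand before the start numbered 1638 with 7 and 42. Past the end, 731 members on the gene's strand, a place of read-through RNA, gave 7 higher and 13 lower, and 309 on the other strand gave 1 and 8. The shares called in these 4 groups ran from 2.74% to 4.34%. These places refer to the gene with the nearest start, and another gene's end can lie closer. By the nearest gene body of any type, 912 members lay up to 1 kb past its end on its strand (3 higher, 12 lower, 1.65% called). Farther past it on its strand lay 967 (6 and 18, 2.48%). Before its start on the opposite strand lay 659 up to 1 kb away (4 and 12, 2.43%) and 921 farther (9 and 50, 6.41%). Strand is as given in the authors' deposited table. Per the labels the library kit marks no strand, yet some features listed on opposite strands of the same bases held very different values. How the authors assigned strand is not given in the sources used here, and the strand of these RNAs was not tested.

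Along the distance to the start, the members before a gene were unevenly listed. Within 1 kb of the start there were 940 and from 1 to 2 kb 339. From 2 to 3 kb there were 48, and then 456 from 3 to 4 kb. Each later step of 1 kb up to 10 kb held 253 to 399. The scarcity held on both listed strands, with 21 members on the gene's strand and 27 on the other from 2 to 3 kb. Of the 1279 members that began nearer than 2 kb, 15 reached past 2 kb. Past the end of genes the same step held 66 members, between 47 and 117 in its neighbours. How the authors selected the listed features is not given in the sources used here.

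**Figure D3:**
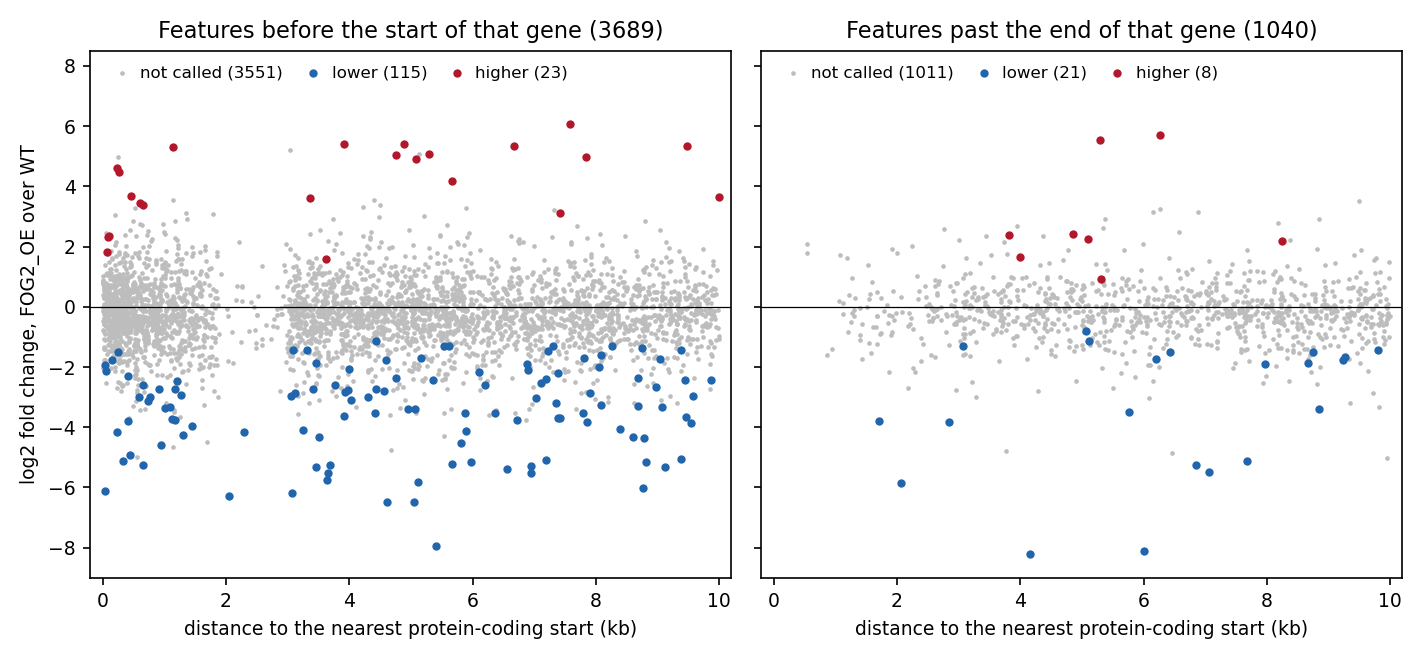
Log2 fold change by the authors' deposited table against distance to the nearest protein-coding start (kb), for 3689 members before that gene's start (left) and 1040 past its end (right), called members in blue (lower) and red (higher). Called members are spread over the whole 10 kb, and the band from 2 to 3 kb before the start holds only 48 members.

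Both members at Hcn4 rose. Hcn4 encodes a channel of the pacemaker current of the sinus node. The member before the Hcn4 start (MSTRG.85266, chromosome 9 from 58822740 to 58823178) had fitted counts of 36.9, 33.5 and 39.3 in the FOG2_OE libraries and 1.23, 1.36 and 1.42 in the WT libraries. The groups lay far apart, at 0.463 against 0.0173 CPM, and by the authors' deposited table its log2 fold change was 4.62 (implied SE 0.83, adjusted p = 3.3e-10). A smaller one 6.67 kb before Hcn4 (MSTRG.85255), inside the RefSeq gene Rec114, stood at 0 in WT and at 0.0628 CPM in FOG2_OE, at least 4.85-fold higher (3 counts over the 3 WT libraries were the floor). The single feature over the Hcn4 gene body was also called higher, with a log2 fold change of 5.22 by the authors' deposited table.

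The rhythm channel and calcium handling list had 18 members at 12 of its 45 genes. Of these, 2 fell, both of them at Sln, which encodes sarcolipin, an inhibitor of the calcium pump of the atrium. The Sln members lay past the gene's end on its strand. MSTRG.84940 fell from 4.12 to 1.85 CPM, WT to FOG2_OE (adjusted p = 0.033 by the authors' deposited table). MSTRG.84942 fell from 2.46 to 0.861 CPM (adjusted p = 0.012 by the authors' deposited table). With the median ratio centred at 1, MSTRG.84940 no longer passed (adjusted p = 0.12).

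Atrial muscle genes had members that fell and none that rose. Of 24 members at 7 of 18 genes on that list, 6 fell, at Myl7, Nppb and Sln, and the median log2 fold change of the 24 was 0.17 by the authors' deposited table. Each of these 3 genes gave 2 of the 6. Neighbouring members may be pieces of 1 transcript, so the 6 are not separate observations. Myl7 encodes the atrial regulatory light chain of myosin. The member past its end on its strand (MSTRG.11505, chromosome 11 from 5889729 to 5891720) had fitted counts of 6.33, 5.76 and 6.75 in FOG2_OE and 260, 286 and 300 in WT. That is 0.0795 against 3.65 CPM, 45.9-fold lower, and its adjusted p of 4.9e-22 was the smallest of all members by the authors' deposited table (log2 fold change -5.49, implied SE 0.52). MSTRG.11504, listed on the other strand and sharing 1383 bases with it, had 0.0168 against 0.641 CPM. Nearer the gene, MSTRG.11502 had 1.30 against 3.98 CPM and did not pass (adjusted p = 0.11 by the authors' deposited table), and the 2 remaining members at Myl7 were under 0.06 CPM in both groups and did not pass either. The feature over the Myl7 body was lower by 1.33 on the log2 scale by the authors' deposited table. Fewer atrial muscle cells and less RNA per cell cannot be told apart in these bulk samples.

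Nppb, the gene of B-type natriuretic peptide, had 10 members, more than most genes. The 2 listed on its strand, both past its end, fell. MSTRG.62122 had fitted counts of 22.8, 20.8 and 24.3 in FOG2_OE and 282, 311 and 326 in WT, a fall from 3.96 to 0.286 CPM (adjusted p = 4.2e-13, implied SE 0.44 for a log2 fold change of -3.78 by the authors' deposited table). MSTRG.62113 fell from 0.317 to 0.0209 CPM. The 8 on the other strand had log2 fold changes from 0.21 to 1.42 by the authors' deposited table, and none passed (smallest adjusted p = 0.21). Among them MSTRG.62121 shared 730 bases with MSTRG.62122 and had 0.4997 against 0.282 CPM (adjusted p = 0.32 by the authors' deposited table). MSTRG.62114 shared 493 bases with MSTRG.62113 and had 0.270 against 0.168 CPM. The changes of each such pair differed by 4.60 and 4.51 on the log2 scale by the authors' deposited table. The feature over the Nppb body had a log2 fold change of 0.42 and was not called by the authors' deposited table. The 2 members nearest Nppa, the gene of atrial natriuretic peptide, did not pass, at 1.25 against 1.04 CPM (MSTRG.62123) and 0.0459 against 0.0740 CPM (MSTRG.62118).

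**Figure D4:**
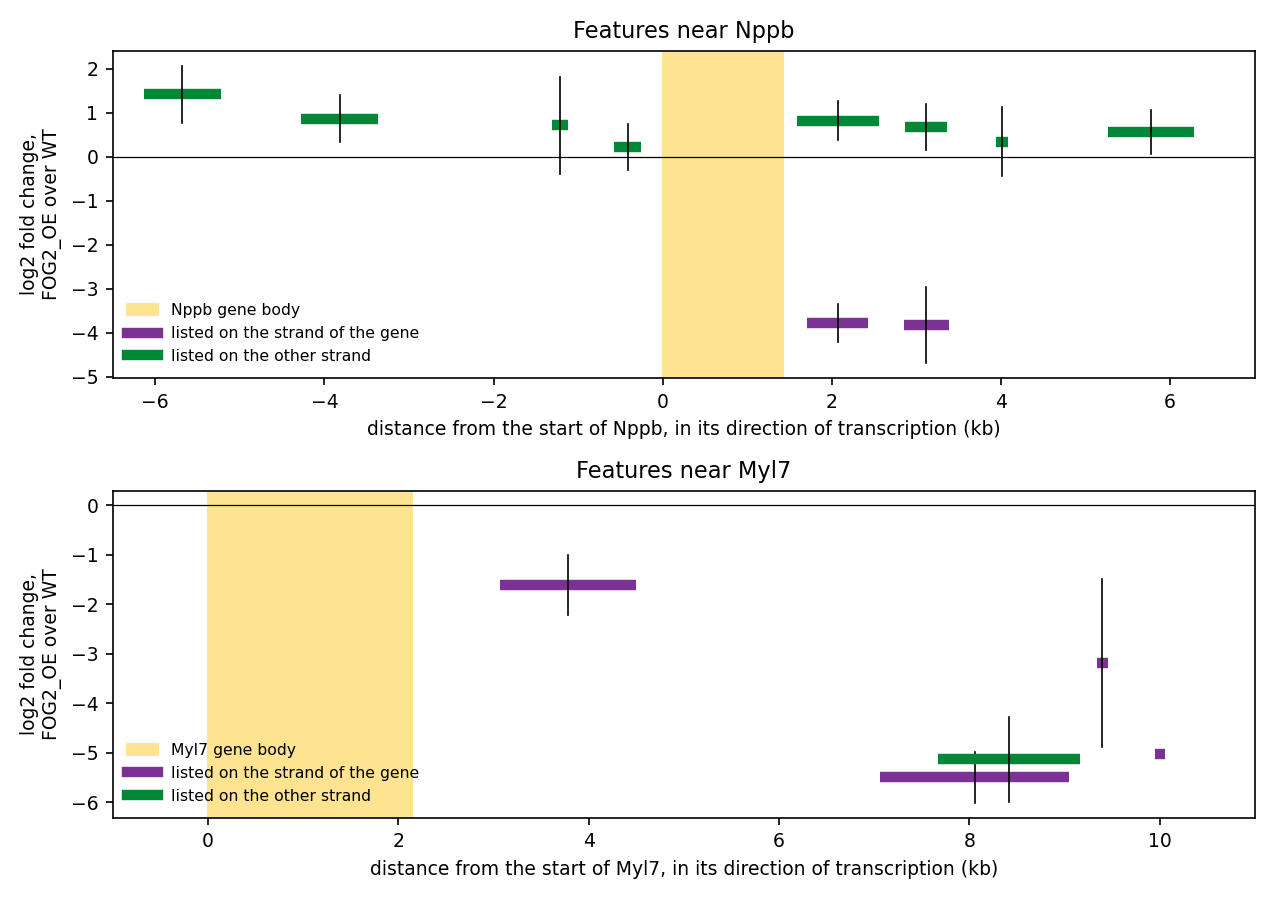
Members near Nppb (top) and Myl7 (bottom) at their distance from the gene's start in its direction of transcription (kb), with the log2 fold change of the authors' deposited table, thin lines of 1 implied SE where one could be solved, and the gene body shaded. At Nppb the 2 members on the gene's strand lie near -3.8 and the 8 on the other strand above 0, whereas at Myl7 all 5 lie below 0.

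Shared bases on opposite strands were counted over all members. In all, 89 pairs of members overlapped on opposite strands, 20 of them over at least 50% of both. Over those 20, the median difference in log2 fold change within a pair was 0.75 in size by the authors' deposited table. The pair at Myl7 was the one pair with both members called, in the same direction. When overlapping members were joined, 4639 loci remained, of which 31 had a higher and 135 a lower member.

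Matrix and stress genes had a few members that rose. Col12a1, which encodes a collagen found along other collagen fibrils, had 2 members before its start and both rose: MSTRG.86303 from 0.0434 to 0.466 CPM (adjusted p = 2.4e-07 by the authors' deposited table), and the shorter MSTRG.86283 from about 1 count over the WT libraries. Both lie inside Col12a1 as RefSeq draws it. They were the 2 of 8 matrix list members that rose, and none of the 8 fell. Features of 5 of 7 fibroblast markers summed to 3.58 CPM in FOG2_OE against 2.25 CPM in WT with none called, and their part in this result was not tested. On the cardiac stress list 2 of 25 members rose and 2 fell, the latter being those at Nppb. The 2 that rose lay past the ends of Ccn1 and Ccn2, which encode secreted matrix proteins. MSTRG.56126 near Ccn1 had 0.307 against 0.0570 CPM (adjusted p = 0.024 by the authors' deposited table). MSTRG.7323 near Ccn2 had 2.30 against 0.734 CPM (adjusted p = 0.048 by the authors' deposited table).

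The other lists reported here had at most 1 call each. The member before Adcy5, which encodes an adenylyl cyclase of the heart, rose from 0.0988 to 0.351 CPM (MSTRG.33911, adjusted p = 0.032 by the authors' deposited table), the 1 call among 12 members of the G protein and autonomic list. The 2 other members at Adcy5 were not called, at 0.112 against 0.119 CPM (MSTRG.33874) and 0.173 against 0.247 CPM (MSTRG.33876). Of the 8 features over its body none was called higher and 1 lower, with a median log2 fold change of -1.28 by the authors' deposited table. Before Ttn, the gene of the sarcomere spring titin, MSTRG.47636 fell from 0.448 to 0.157 CPM (adjusted p = 0.034 by the authors' deposited table). It was the 1 call among 12 sarcomere members. The Ttn body held 78 features, and 2 of these were called higher and 0 lower. Their log2 fold changes had a median of -0.22 by the authors' deposited table. Past the end of Slc25a4, the gene of the main ADP/ATP carrier of heart mitochondria, MSTRG.80188 fell from 34.2 to 19.5 CPM (adjusted p = 0.012 by the authors' deposited table), the 1 call among 9 energy metabolism members. Of 17 members at cardiac transcription factor genes 0 rose and 1 fell, MSTRG.29823 before Zfpm2, from 0.659 to 0.234 CPM (adjusted p = 0.019 by the authors' deposited table). The other one before Zfpm2, MSTRG.29821, had 0.0927 against 0.292 CPM and missed the threshold (adjusted p = 0.0504 by the authors' deposited table). With the median ratio centred at 1, MSTRG.47636, MSTRG.80188 and MSTRG.29823 no longer passed (adjusted p = 0.098, 0.11 and 0.064).

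The 1 cell cycle call was MSTRG.14126 before Aurkb, at 0.634 against 0.212 CPM, and it overlaps a transfer RNA gene in RefSeq. The 1 housekeeping call was MSTRG.13757 near Ubb, a ubiquitin gene, at 0.0128 against 0.123 CPM. Lists of ventricular, endothelial, smooth muscle, leukocyte, epicardial, adipocyte, growth factor and interferon genes had members and no call. Lists of nerve, erythroid, and skeletal muscle and lung genes had no member. Over the 22 lists, 161 members lay at 89 of 406 genes, and 9 rose and 10 fell (11.8%). These lists were drawn up with earlier results of these data known, so this share is a description and not set against the background.

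Among the members named for the smallest adjusted p, several of those that rose lay outside the lists. Ttc7b, which encodes a part of the complex that brings a lipid kinase to the cell membrane, had 3 members, all before its start and all higher. They lay 7.835 to 9.995 kb from the start on the same listed strand. They may be pieces of 1 transcript and are not separate observations. MSTRG.20648 had fitted counts of 68.3, 62.2 and 72.8 in FOG2_OE and 1.84, 2.03 and 2.12 in WT, that is 0.858 against 0.0258 CPM (log2 fold change 4.97, implied SE 0.70, adjusted p = 7.2e-15 by the authors' deposited table). MSTRG.20651 had 0.453 against 0.0348 CPM, and MSTRG.20649 stood at 0 in WT. Past the end of Sftpa1, the gene of a lung surfactant protein, 2 members rose: MSTRG.26724 had 0.532 CPM in FOG2_OE and 2 counts over the WT libraries, a ratio of 61.6 (exact 95% counting interval 16.7 to 514), and MSTRG.26725 had 0.272 CPM and 1 count, a ratio of 63.0 (10.8 to 2510). Such intervals cover counting error only. The 2 members at Sftpa1 are listed on the same strand, may be pieces of 1 transcript and are not separate observations.

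Other lung markers could be read at few features. Of the remaining 6 surfactant and airway markers, 2 had features (Sftpb and Ager), which summed to 0.238 CPM in FOG2_OE against 0.279 CPM in WT with none called, and the other 4 had none. A part of lung RNA in the Sftpa1 result was not tested. The member before Fhl2, a LIM protein of heart muscle, stood at 0 in WT and at 0.105 CPM in FOG2_OE, at least 8.13-fold higher (MSTRG.1017). Before Ncs1, a neuronal calcium sensor gene, MSTRG.45582 had 0.183 against 0.0128 CPM. The most abundant member that rose, MSTRG.61729 near Srarp and 1.004 kb past the end of Hspb7, a small heat shock protein gene of heart, had 26.8 against 14.3 CPM (adjusted p = 0.0019 by the authors' deposited table). Near H2al3, MSTRG.88704 had 0.263 against 0.0562 CPM and lies inside the RefSeq gene Sytl5.

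The members that fell with the smallest adjusted p included several long and well covered ones. Before Adamts8 and Adamts15, neighbouring genes of secreted metalloproteases, MSTRG.83933 fell from 11.4 to 1.66 CPM and MSTRG.83936 from 6.33 to 0.810 CPM (adjusted p = 2.1e-10 and 4.1e-09 by the authors' deposited table). Both are listed on the - strand of chromosome 9, from 30931247 to 30937999 and from 30925506 to 30929851. They may be pieces of 1 transcript and are not separate observations. Before Tnfsf13b, which encodes the B cell survival factor BAFF, MSTRG.79112 fell from 8.05 to 1.34 CPM. Near Dusp5, a phosphatase of ERK kinases, MSTRG.44030 fell from 1.91 to 0.146 CPM. The 2 members before Cfap58 fell, MSTRG.43977 from 2.23 to 0.271 CPM and MSTRG.43978 from 1.18 to 0.177 CPM.

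Shorter ones fell further. Before Ptgfr, the gene of the prostaglandin F receptor, MSTRG.56375 fell from 0.720 to 0.0301 CPM and MSTRG.56371 stood at 0 in FOG2_OE, and the feature over the gene body was lower by 5.61 on the log2 scale by the authors' deposited table. Before Cdcp1, a membrane glycoprotein gene, MSTRG.88310 had about 1 count over the FOG2_OE libraries and 0.403 CPM in WT, a ratio of 95.6 (exact 95% counting interval 16.7 to 3796). Before Serpinb6b, a protease inhibitor gene, MSTRG.22533 stood at 0 in FOG2_OE and at 0.389 CPM in WT, at least 30.7-fold lower. Near Sbk3, a kinase gene, MSTRG.73531 fell from 0.450 to 0.0297 CPM. In RefSeq's gene ranges MSTRG.22533 lies inside Serpinb6b with all 830 bases, MSTRG.73531 reaches into Sbk3 with 327 of 901 bases and MSTRG.88310 into Cdcp1 with 43 of 215.

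**Figure D5:**
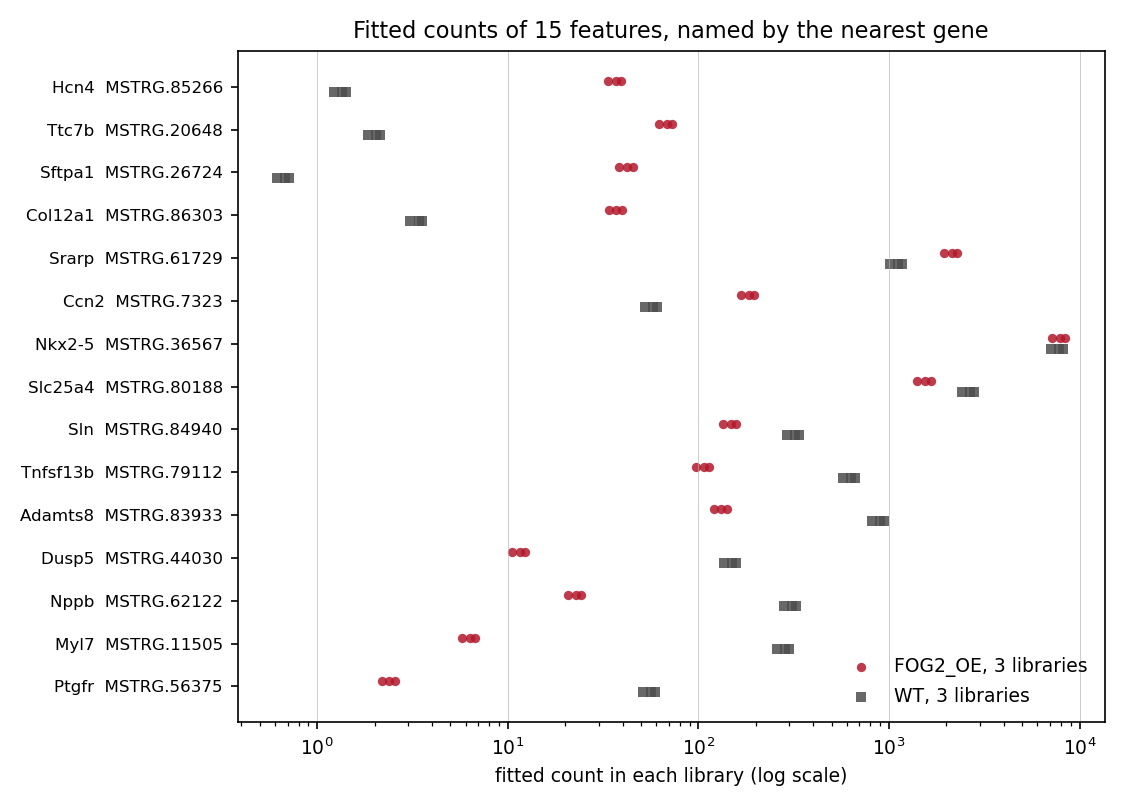
Fitted counts of 15 members in each of 3 FOG2_OE libraries (red circles) and 3 WT libraries (grey squares), on a log scale, labelled by nearest gene and feature number. Points of a group differ only by library size, since they come from the authors' fit; the groups lie apart at each member shown except the one past the end of Nkx2-5.

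Some genes had several members that fell, and the following were picked after their values were seen. All 5 members at Paqr9 fell, with sums of 1.11 CPM in WT and 0.219 CPM in FOG2_OE. At Gm11983, 5 of 6 fell, and all 6 stood at 0 in FOG2_OE and summed to 1.32 CPM in WT, at least 104-fold lower. At Rgs13, which encodes a regulator of G protein signalling, 4 of 5 fell, as did 14 of the 16 features over the gene body by the authors' deposited table. All 4 at Zfp974, a zinc finger gene, fell from 5.49 to 1.44 CPM in sum. All 3 at Tnfsf18 and 3 of 5 at Fuca2 fell. Neighbouring members may be pieces of 1 transcript, so these are not separate observations. Genes with more than 1 member of the same call numbered 5 for higher and 22 for lower calls.

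The most abundant members mostly did not pass. A 120-base member 9.28 kb before Zfp945 (MSTRG.36238) was the highest, at 242 CPM in FOG2_OE and 457 CPM in WT (adjusted p = 0.27, implied SE 0.45 for a log2 fold change of -0.92 by the authors' deposited table). MSTRG.79054 near Cd209a had 172 against 88.4 CPM (adjusted p = 0.44 by the authors' deposited table). Past the end of Nkx2-5, a gene of a cardiac homeobox factor, MSTRG.36567 spanned 17619 bases and had 99.2 CPM in FOG2_OE and 99.1 CPM in WT, with a log2 fold change of 0.00 (implied SE 0.25) by the authors' deposited table. MSTRG.49624 near Cd93, an endothelial and myeloid cell surface gene, had 21.1 against 26.1 CPM. The member near Tbx5, a cardiac T-box factor gene, did not pass, at 0.0887 against 0.0816 CPM (MSTRG.66394).

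Calls at members and over the nearest gene's body were compared by count. Of the 31 higher members, 11 had a nearest gene with listed features over its body: 4 (at 3 genes) had one called higher there, 1 had one called lower and 6 had none called. Of the 136 lower members, 69 had such a gene, with 29 called lower over the body, 2 called higher and 38 with none called. Those 69 members lay at 44 genes and the 29 at 13, of which Gm11983 gave 5 members and Rgs13 gave 4. Of the 1769 uncalled members whose gene had body features, 83 (4.69%) had one called lower there and 43 (2.43%) one called higher. Members of a gene share its body features and are not independent, and the difference was not tested. RefSeq draws some genes longer than GENCODE M21: 1053 members overlapped a RefSeq gene (10 higher, 26 lower), of which 501 overlapped a protein-coding one (7 higher, 14 lower). The 3676 members outside RefSeq genes gave 21 higher and 110 lower calls. With 10 residual degrees of freedom, 19 of the 36 named members that passed the authors' test still passed: both at Sftpa1, MSTRG.20648 and MSTRG.20651 at Ttc7b, MSTRG.86303 at Col12a1, MSTRG.85266 at Hcn4, and 13 that fell. The 13 were MSTRG.62113 at Nppb and the 12 with the smallest adjusted p, at Myl7 (2), Nppb, Cdcp1, Dusp5, Tnfsf13b, Adamts8, Serpinb6b, Cfap58, Adamts15, Ptgfr and Sbk3.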

How the data were processed

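From left atria, 3 FOG2_OE and 3 WT libraries were compared. Per the labels' protocols, RNA depleted of ribosomal and polyadenylated RNA was made into libraries with TruSeq RNA v2. STAR, HTSeq 0.6.0, edgeR, deepTools and mm10 stand in the submitters' processing notes without roles. For each feature the authors deposited log2 values (fold change and CPM), scores (a likelihood ratio and 6 sample columns) and p-values, raw and adjusted. The sample columns of a group differed from each other by 1 factor over all features. They were therefore taken as values fitted by the authors, not as counts. The planned count test could not be run, and the authors' test was used in its place. Its p-values measure only the spread between these libraries, which nothing says were separate animals.

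Computed here were effective library sizes (718 features above 300 fitted counts), the negative binomial dispersion solved from the deposited ratio of each feature (for ratios of at least 0.1, otherwise from features of like level), the implied SE, and calls under another scale or an F reference. The median implied SE of members was 0.77. On simulated counts for FOG2_OE against WT (34518 features), dispersions were recovered with a median error of 0.30%, and 10% of 2-fold and 72% of 4-fold changes were called. The 200 changed features were drawn only from those well above the members' median of 6.66 fitted counts. These shares therefore do not describe the scarce members. Members were placed on GENCODE M21, with positions counted from 1. Promoters came from RefSeq tables. Under 80% of the genes with a called member were matched there, so a comparison of motif shares between gene groups is void and not given.

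Named members were the 12 higher and 12 lower with the smallest adjusted p, the 6 most abundant, called members at listed genes (up to 4 a list) and those at 8 chosen genes, of which Gata4 and Gata6 had none. One of the named members, with the list counts that need it, is not reported here. Members and lists were chosen with earlier results of these data known. Tools were Python 3.11.15, numpy 2.4.6, scipy 1.17.1, pandas 2.3.3 and matplotlib 3.10.9.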

Additional observations from a re-analysis of the deposited data

How the results depend on the processing

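No paired analysis was possible because the sample columns hold fitted values that differ within a group only by library size. For the same reason leaving out a replicate, the replicate block, DESeq2 and a second count normalization were not run. The 31 higher and 136 lower calls became 13 and 64 at an adjusted p under 0.01, 6 and 27 with 10 residual degrees of freedom, and 0 and 0 with 4 (smallest adjusted p = 0.58). Fewer members were tested in the next settings: 16 and 77 among 1701 with a mean fitted count of at least 10, 17 and 61 among 2520 at most 5 kb from a start, 9 and 27 among 1330 at most 2 kb away, and 19 and 102 among 2672 with no gene body within 1 kb. Starts of genes of any biotype gave 59 and 278 among 7865. Centring the median ratio at 1, which removes a median log2 ratio of -0.21, gave 46 and 98, of which 129 of 144 were shared with the calls above. An alternative chosen after seeing the data, leaving out members inside RefSeq genes, gave 21 and 110. Shares of all features at an adjusted p under 0.05 are given above only for the authors' calls, 10 residual degrees of freedom and centring. The counts under the other settings have no such share beside them and were not set against all features. Of the named members, 4 lost their call under centring and 17 with 10 residual degrees of freedom, and none reversed. At 5 kb the atrial list had 2 lower calls in place of 6. Depth limits the scarce members: the median implied SE was 0.93 under 10 fitted counts and 0.37 at 100 or more.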

Other observations

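Some called members outside the lists and the naming rule lay near genes of muscle structure and excitability, and they were picked after their values were seen. Of 3 members near Ank2, which encodes the membrane anchor ankyrin-B of heart muscle, 2 before its start were lower: MSTRG.55629 had 0.0125 CPM in FOG2_OE against 0.185 CPM in WT, and MSTRG.55631 stood at 0 in FOG2_OE and at 0.0883 CPM in WT. Near Lmod3, the gene of a leiomodin of muscle thin filaments, MSTRG.71216 had 0.214 against 1.12 CPM and MSTRG.71213 had 0.256 against 1.16 CPM. Both lie inside a RefSeq noncoding gene. Near Kcnv2, a modifier subunit of potassium channels, MSTRG.43036 had 0.0719 against 0.464 CPM (adjusted p = 5.3e-05 by the authors' deposited table).

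Among the higher calls, the member before Zfp609, a zinc finger gene, had 0.795 CPM in FOG2_OE against 0.154 CPM in WT (MSTRG.85692, adjusted p = 0.0047 by the authors' deposited table). Past the end of Rhob, which encodes a small GTPase, MSTRG.17814 had 0.169 against 0.0303 CPM. The member before Kcng1, another modifier subunit of potassium channels, stood at 0 in WT and at 0.0513 CPM in FOG2_OE, at least 3.97-fold higher (MSTRG.50825).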
